A study of Mus musculus with 10 samples.

Results

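The 40 type I interferon response genes described here are the receptor chains of type I interferon, their transcription factors and a set of interferon-induced genes. They were taken by gene symbol from a table of 27179 genes, and all 40 were found there. They were followed in regulatory T cells (Tregs) of C57BL/6 mice from 2 tissues. In Maf-KO mice, floxed Maf (Maf fl/fl) is deleted by the Foxp3Cre-YFP allele. That allele drives Cre and the YFP reporter from Foxp3, so the deletion falls in Foxp3-expressing cells. The controls, called WT, carry Foxp3Cre-YFP as well, and no age is given for either genotype. Tregs were sorted by CD4, TCR beta and YFP from gut, which here means colon and small intestine together, or from spleen. There are 2 Maf-KO gut libraries (replicates 2 and 3), 2 WT gut libraries (replicates 1 and 3), 3 Maf-KO spleen and 3 WT spleen libraries (replicates 1, 2 and 3 each). Values by library stand in this replicate order throughout. Whether each replicate came from its own mouse is not stated in the labels. The p-values therefore reflect only how these samples vary, and some of that variation may be technical.

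Type I interferons are secreted antiviral cytokines that bind a receptor of an Ifnar1 and an Ifnar2 chain. The receptor's kinases switch on Stat2, which acts with Irf9 in the complex ISGF3. That complex binds the interferon-stimulated response element (ISRE) before many of the genes below, whose products sense viral nucleic acid, block viral replication or restrain the signal again. In T cells the same pathway is known to be active at a low level without infection and to shape survival and differentiation.

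The promoters of several genes that the results turn on carry the ISRE and are printed first, so that the element can be seen beside the values. RefSeq windows of the build GRCm38.p6, from 250 bases before to 50 bases after a transcription start, were at hand for 31 of the 40 genes. The ISRE motif searched, on both strands, was GAAA, then any 2 bases, then GAAA again. It stood in 16 of the 31 genes (51.6%), against 1079 of all 27025 genes with a window (3.99%). The motif TTCNNNGAA, the site of Stat dimers (GAS), stood in 10 of the 31 (32.3%), against 9.55% of all genes with a window. A match is a description of the sequence and shows no binding. In the stretches below, written 5′ to 3′ on the strand of the gene, capitals mark the ISRE match with 25 bases on each side. Ifit1, Ifit3 and Stat2 were lower in gut, Isg15 was higher in gut, Rsad2 was called higher in WT gut, and Oas3 had the lowest p between genotypes. These 6 were chosen for printing after their values were seen.
Ifit1: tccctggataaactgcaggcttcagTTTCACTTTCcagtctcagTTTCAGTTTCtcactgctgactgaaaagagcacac
Ifit3: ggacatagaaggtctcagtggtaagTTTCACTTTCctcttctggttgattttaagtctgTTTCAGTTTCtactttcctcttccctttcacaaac
Stat2: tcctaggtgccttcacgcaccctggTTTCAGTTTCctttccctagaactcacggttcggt
Isg15: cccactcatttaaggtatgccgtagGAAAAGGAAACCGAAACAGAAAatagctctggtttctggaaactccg
Rsad2: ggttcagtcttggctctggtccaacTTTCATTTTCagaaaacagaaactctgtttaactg
Oas3: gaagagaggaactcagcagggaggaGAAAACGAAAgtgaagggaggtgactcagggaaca
The Ifit1 stretch is chr19:34640760-34640838 on the plus strand, and its matches begin 104 and 85 bases before the start. Ifit3 (chr19:34583348-34583441, plus strand) has matches that begin 156 and 122 bases before the start. Stat2 (chr10:128270251-128270310, plus strand) has 1 match, 222 bases before the start. In these 3 genes the motif lies on the opposite strand, so the capitals show its reverse complement. The Isg15 stretch (chr4:156200850-156200921, minus strand) holds 3 overlapping matches that begin 78, 72 and 66 bases before the start. Rsad2 (chr12:26456538-26456597, minus strand) has 1 match on the opposite strand, 120 bases before the start, and Oas3 (chr5:120777700-120777759, minus strand) has 1 match 75 bases before it. The element thus lies before some genes that were higher in gut and before some that were lower there. Of the genes called lower in both genotypes, Ifnar2, Irf9, Ifit2, Oasl2 and Ifi44 had no match in their windows. No window was at hand for Usp18, Mx1 and Parp9.

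Libraries held 8567035 to 13983965 counts. For counting error alone, 3 counts, the limit that a count of 0 allows, correspond to 0.215 to 0.350 CPM by total count. Elsewhere CPM is a count scaled to a common library size with TMM, a normalisation that balances the bulk of genes between libraries. On that scale 3 counts were 0.240 CPM in Maf-KO gut replicate 3 and 0.377 CPM in WT gut replicate 1. Maf had 7 and 3 counts in Maf-KO gut against 859 and 918 in WT gut, and 2, 10 and 2 in Maf-KO spleen against 337, 312 and 484 in WT spleen. Foxp3, the factor that defines Tregs, averaged 193 ± 26.2 CPM in Maf-KO gut against 119 ± 4.57 CPM in Maf-KO spleen, and 181 ± 34.9 CPM in WT gut against 126 ± 8.59 CPM in WT spleen (SD, 2 gut and 3 spleen libraries per genotype). The 7 Treg markers were all detected and summed to 8243 to 9395 CPM in gut and 3143 to 3723 CPM in spleen. Of these, Ctla4 reached 66650 counts in a library, where no other Treg marker passed 16888. Markers of other cells moved with tissue too, and each list had all its genes detected in at least 1 library. The 3 plasma cell markers summed to 1130 to 6393 CPM in gut and 51.5 to 123 CPM in spleen, and the 6 gut epithelium markers to 135 to 176 CPM in gut and 32.2 to 68.6 CPM in spleen. Among the plasma cell markers Jchain reached 50314 counts, Mzb1 401 and Sdc1 198. The 5 B cell markers summed to 48.1 to 73.9 CPM in gut and 117 to 345 CPM in spleen. The 4 CD8 and NK markers summed to 19.9 to 32.9 CPM in gut and 39.0 to 90.7 CPM in spleen. The 6 stroma markers summed to 44.3 to 74.5 CPM in gut and 114 to 191 CPM in spleen. That stroma sum was mostly Pecam1, with up to 2457 counts in a library, where no other stroma marker passed 74. Among the epithelium markers Epcam reached 1494 counts, Cdh1 290 and no other more than 26. Of the 5 plasmacytoid dendritic cell markers (546 to 1085 CPM in gut, 18.8 to 65.6 CPM in spleen), Ccr9, which gut-homing T cells also express, gave most of the gut sum, and Siglech reached at most 24.6 CPM. Among defining markers Krt8 and Pdgfra were at 0 in 7 of 10 libraries, Krt20 in 6, Col3a1 in 4 and S100a8 and S100a9 in 3. The 8 markers of macrophages, monocytes and neutrophils summed to 81.0 to 241 CPM in gut and 132 to 845 CPM in spleen. Maf-KO spleen replicate 2 (479 CPM) and WT spleen replicate 3 (845 CPM) stood apart, with S100a8 at 122 and 321 CPM against 14.7 to 23.2 CPM in the other 4 spleen libraries. In gut, S100a8 and S100a9 were both at 0 in Maf-KO replicates 2 and 3 and WT replicate 1, and at 0.8285 CPM in WT replicate 3. The part of these cells in the results was not tested, and results between tissues are therefore also given without that pair of spleen libraries, an alternative added after seeing the data. The spleen libraries that remain still hold more S100a8 and S100a9 than gut, so this alternative cannot separate neutrophil RNA from tissue.

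All 40 genes passed the filter on low counts. Levels of different genes were compared per length, as FPKM (reads per kilobase of transcript and per library size) from the authors' log2 values. On this scale the most abundant gene was Irf1, a transcription factor induced by interferons of both types, with 137 and 179.6 FPKM in Maf-KO gut against 129, 142 and 161 FPKM in Maf-KO spleen, and 175 and 188 FPKM in WT gut against 177, 170.4 and 182 FPKM in WT spleen. Bst2, whose product tethers budding virus to the cell, followed with 113 and 84.4 FPKM in Maf-KO gut against 74.2, 98.9 and 87.1 FPKM in Maf-KO spleen, and 94.6 and 127 FPKM in WT gut against 104, 81.6 and 127 FPKM in WT spleen. Isg15, a ubiquitin-like modifier, came next with 145 and 129 FPKM in Maf-KO gut against 53.9, 66 and 46.3 FPKM in Maf-KO spleen, and 109 and 104 FPKM in WT gut against 48.9, 50.9 and 49.1 FPKM in WT spleen. Irf1 and Bst2 overlapped between tissues on this scale, whereas Isg15 stood higher in each gut library than in any spleen library. At the other end Ifi44 averaged -0.45, Oas2 -0.27 and Ifitm1 -0.05 on the log2 FPKM scale over the 4 groups, against 7.36 for Irf1.

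Between tissues, gut Tregs of both genotypes carried less RNA of a group of interferon response genes and more of Isg15. In Maf-KO, 13 of the 40 genes were called at an edgeR adjusted p under 0.05, 1 higher and 12 lower in gut. In the same comparison 28.6% of all 13214 genes tested were called, 14.4% higher and 14.1% lower. In WT, 17 of the 40 were called, 2 higher and 15 lower, against 28.0% of all genes, 14.7% higher and 13.3% lower. The share called lower is thus above the background and the share called higher below it in both genotypes, which is a description and no test of the list. The median log2 fold change of the 40 was -0.35 in Maf-KO and -0.40 in WT, beside -0.02 and -0.03 over all genes tested. In bulk RNA, fewer cells of a type and less RNA per cell cannot be told apart.

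The comparisons in Maf-KO and in WT share no library, although they share 1 estimate of the spread. Of the 40 genes, 11 were called lower in gut in both genotypes (27.5%, against 10.1% of all genes tested), and 1, Isg15, was called higher in both (2.50%, against 11.3%). The sign was the same in both genotypes for 37 of the 40 (92.5%, against 83.1% of all genes), and negative in both for 28 (70.0%, against 43.7%). In CPM, the gut and spleen libraries of Maf-KO did not overlap for 8 genes that were higher and 21 that were lower in gut, where all genes gave 27.5% higher and 28.9% lower. In WT they did not overlap for 4 higher and 22 lower genes, where all genes gave 25.9% and 27.5%. On the authors' log2 FPKM scale the split was 1 higher and 26 lower in Maf-KO, and 2 higher and 29 lower in WT. There the median of all genes lay at -0.27 in Maf-KO and -0.29 in WT. The share of all genes without overlap was not counted on that scale, so this split is no result about the 40. Each of 4 gut libraries shares the number in its sample title with a spleen library of the same genotype. Within these 4 pairs, 27 genes were lower in gut in all 4, 4 genes (Isg15, Ifnar1, Irf1 and Bst2) were higher in all 4, and 9 were mixed. The share of all genes with the same sign in all 4 pairs was not counted. The pair counts are thus not shown to be particular to the 40.

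With the title number as a block, 25 genes were called in Maf-KO, 5 higher and 20 lower, and 23 with the number as a random effect in limma-voom, 5 higher and 18 lower. The share of all genes called rose as well, to 39.7% and 43.7% in these fits, against 28.6% without the block. In WT the blocked fits called 24 (2 higher, 22 lower) and 25 (3 higher, 22 lower), with 37.2% and 41.6% of all genes called, against 28.0% without the block. Both blocked fits kept all 13 calls of Maf-KO and all 17 of WT. Without Maf-KO spleen replicate 2 and WT spleen replicate 3, 13 genes were called in Maf-KO (3 higher, 10 lower, 11 of them shared) and 13 in WT (3 higher, 10 lower, 12 shared), where 21.3% of all genes were called in Maf-KO and 23.7% in WT. The median log2 fold change of those of the 40 that were tested was then -0.13 in Maf-KO and -0.27 in WT. Over all genes tested it was -0.009 and -0.026 in that fit. Leaving out Maf-KO spleen replicate 2 alone gave a median of -0.18 in Maf-KO, and leaving out WT gut replicate 1 gave a median of -0.40 in WT. A gut group with 1 library left out holds only 1 library, which limits what a call lost in such a fit can show.

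**Figure D1:**
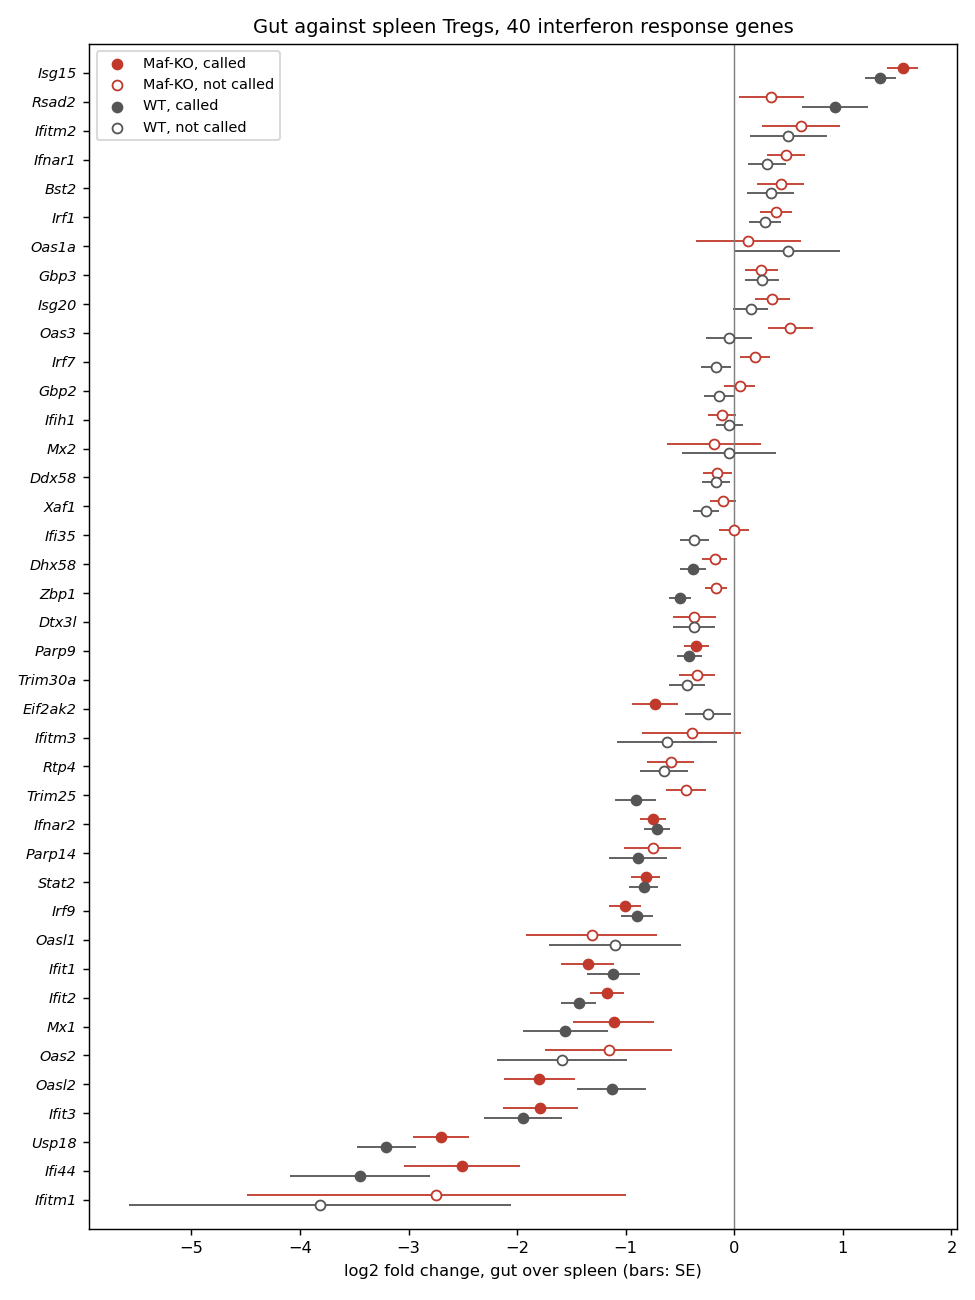
Log2 fold change of gut over spleen for each of the 40 genes (x axis, log2; bars are SE), in Maf-KO (red, upper point of each gene) and WT (grey, lower point), with filled points for genes called at an adjusted p under 0.05. Usp18 and Ifi44 lie farthest left among called genes, and Isg15 farthest right in both genotypes.

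Of the ligands, type I interferon RNA was at or near 0 in these sorted cells. The 20 genes of type I and type III interferons together had 14 counts over the 10 libraries, at most 4 in any library, and Ifnb1 had 0 in all.

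Of the receptor chains, Ifnar2 was lower in gut and Ifnar1 was not called. Ifnar2, the high-affinity chain of the receptor, had 84.6 and 94.6 CPM in Maf-KO gut against 135, 153 and 162 CPM in Maf-KO spleen, and 91.1 and 98.5 CPM in WT gut against 142, 167 and 156 CPM in WT spleen. Every gut library lay below every spleen library of its genotype. The log2 fold changes were -0.74 (SE 0.12, edgeR adjusted p = 0.00147) in Maf-KO and -0.71 (SE 0.12, edgeR adjusted p = 0.00192) in WT. Ifnar1, the other chain, had 318 and 464 CPM in Maf-KO gut against 261, 276 and 307 CPM in Maf-KO spleen, and 355 and 312 CPM in WT gut against 229, 296 and 289.8 CPM in WT spleen. Its gut libraries all lay above the spleen libraries of their genotype, with no call, at 0.47 (SE 0.17, edgeR adjusted p = 0.0672) in Maf-KO and 0.30 (SE 0.17, edgeR adjusted p = 0.238) in WT.

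Stat2 and Irf9, both parts of ISGF3, were lower in gut. Stat2 (chromosome 10, 128270498 to 128292853 in GRCm38) had 61.5 and 57.7 CPM in Maf-KO gut against 96.3, 113 and 106 CPM in Maf-KO spleen, and 53.9 and 59.5 CPM in WT gut against 88.7, 99.3 and 116 CPM in WT spleen. The groups did not overlap in either genotype. Its log2 fold changes were -0.82 (SE 0.13, edgeR adjusted p = 0.00145) in Maf-KO and -0.83 (SE 0.13, edgeR adjusted p = 0.00136) in WT. Irf9, the DNA-binding part of the complex, had 145 and 125 CPM in Maf-KO gut against 236, 305 and 272 CPM in Maf-KO spleen, and 122 and 145 CPM in WT gut against 229.9, 242 and 272 CPM in WT spleen. Here too all gut libraries lay below all spleen libraries, and the changes were -1.004 (SE 0.15, edgeR adjusted p = 8.07e-04) in Maf-KO and -0.89 (SE 0.15, edgeR adjusted p = 0.00156) in WT. The calls of Ifnar2, Stat2 and Irf9 held in all 20 alternatives run in each genotype. The other factors were not called between tissues. Irf7, which drives the interferon alpha genes, had log2 fold changes of 0.19 (SE 0.14, edgeR adjusted p = 0.349) in Maf-KO and -0.17 (SE 0.14, edgeR adjusted p = 0.405) in WT, with overlapping WT libraries. Irf1 had 0.38 (SE 0.14, edgeR adjusted p = 0.0735) in Maf-KO and 0.28 (SE 0.14, edgeR adjusted p = 0.174) in WT, with its gut libraries above its spleen libraries in both genotypes.

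Isg15 and Usp18 act on the same modification and stood in opposite order. Usp18 encodes the protease that removes Isg15 from proteins and that also blocks signalling at Ifnar2. Usp18 (chromosome 6, 121245906 to 121270917) had 8.88 and 12.1 CPM in Maf-KO gut against 48.2, 87.9 and 69.8 CPM in Maf-KO spleen, and 7.54 and 8.05 CPM in WT gut against 80.2, 66.3 and 69.5 CPM in WT spleen. The gut libraries lay far below the spleen libraries, with no overlap. The log2 fold changes were -2.70 (SE 0.26, edgeR adjusted p = 6.98e-05) in Maf-KO and -3.20 (SE 0.27, edgeR adjusted p = 3.07e-05) in WT. Isg15 (chromosome 4, 156199424 to 156200818) had 117 and 106 CPM in Maf-KO gut against 36.9, 45.5 and 31.8 CPM in Maf-KO spleen, and 85.5 and 85.5 CPM in WT gut against 31.9, 35.2 and 33.7 CPM in WT spleen. Each gut library was above each spleen library, whichever genotype is taken. The log2 fold changes were 1.55 (SE 0.14, edgeR adjusted p = 5.08e-05) in Maf-KO and 1.35 (SE 0.14, edgeR adjusted p = 1.16e-04) in WT. Per length, the ratio of Isg15 to Usp18 was 30.8 and 20.3 in Maf-KO gut against 1.79, 1.21 and 1.07 in Maf-KO spleen, and 26.5 and 24.8 in WT gut against 0.934, 1.25 and 1.14 in WT spleen. Both calls held in all 20 alternatives in both genotypes. Trim25, a ubiquitin ligase that acts on the RNA sensor RIG-I, had 81.8 and 86.7 CPM in Maf-KO gut against 90.7, 141 and 112 CPM in Maf-KO spleen, and 52.4 and 63.2 CPM in WT gut against 94.9, 107 and 124 CPM in WT spleen. Its groups did not overlap within either genotype. Trim25 was called in WT, at -0.91 (SE 0.19, edgeR adjusted p = 0.00585), and not in Maf-KO, at -0.45 (SE 0.18, edgeR adjusted p = 0.0988), and the difference between genotypes was not called (edgeR adjusted p = 0.9999). The WT call was lost without WT gut replicate 1 (edgeR adjusted p = 0.0619).

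**Figure D2:**
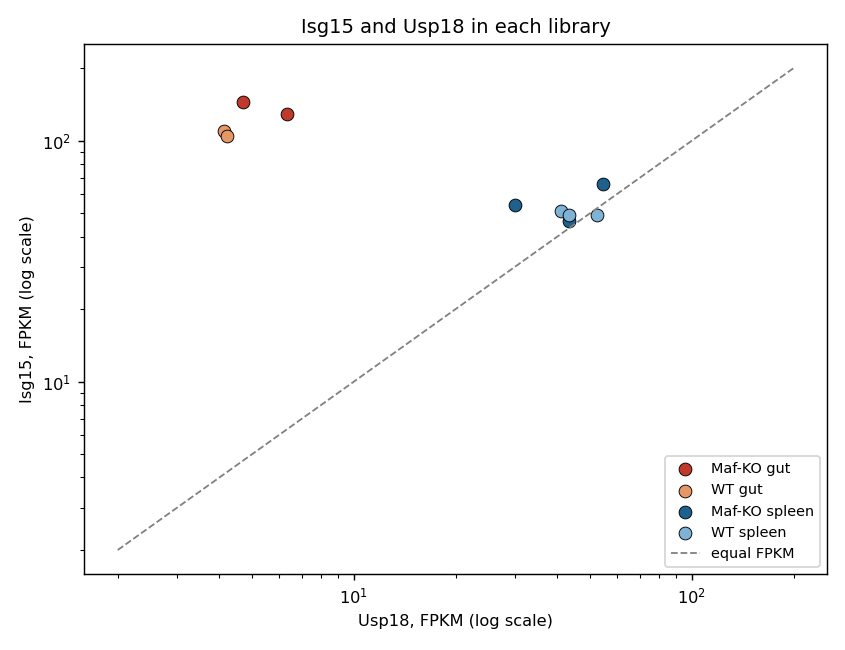
Isg15 (y axis) against Usp18 (x axis) in each library, both in FPKM on log scales, coloured by group, with a dashed line where both are equal. The 4 gut libraries lie at low Usp18 and high Isg15, with ratios of 20.3 to 30.8, and the 6 spleen libraries lie near the line, with ratios of 0.934 to 1.79.

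The Ifit genes, whose products bind viral RNA and block its translation, lie next to each other on chromosome 19 and were all lower in gut. Ifit1 (34640889 to 34650009) had 31.1 and 30.6 CPM in Maf-KO gut against 59.1, 104 and 72.6 CPM in Maf-KO spleen, and 34.4 and 27 CPM in WT gut against 79.3, 54.9 and 65.5 CPM in WT spleen. There was no overlap between tissues. The changes were -1.35 (SE 0.24, edgeR adjusted p = 0.00279) in Maf-KO and -1.11 (SE 0.25, edgeR adjusted p = 0.00771) in WT, and the WT call was lost without WT gut replicate 3 (edgeR adjusted p = 0.0637). Ifit2 (34550550 to 34576534) had 35.3 and 39.9 CPM in Maf-KO gut against 69.9, 87.8 and 96.5 CPM in Maf-KO spleen, and 30.04 and 32.7 CPM in WT gut against 86, 93.8 and 74.3 CPM in WT spleen. All gut libraries lay below all spleen libraries, and the changes were -1.17 (SE 0.16, edgeR adjusted p = 5.80e-04) in Maf-KO and -1.43 (SE 0.16, edgeR adjusted p = 1.95e-04) in WT. Ifit3 (34583119 to 34588982) had 5.48 and 9.98 CPM in Maf-KO gut against 16.7, 35.5 and 28.2 CPM in Maf-KO spleen, and 6.41 and 5.44 CPM in WT gut against 26.5, 20.9 and 21.3 CPM in WT spleen. Again the tissues did not overlap, with changes of -1.79 (SE 0.35, edgeR adjusted p = 0.00391) in Maf-KO and -1.95 (SE 0.36, edgeR adjusted p = 0.00313) in WT. Ifit1 overlaps Ifit1bl1 and Ifit3 has a near copy, Ifit3b, so the counting of reads between these copies is uncertain. The Ifit2 and Ifit3 calls held in all 20 alternatives in both genotypes, and the Ifit1 call in Maf-KO did too.

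Of the other antiviral effectors, Oasl2 and Mx1 were called lower in gut in both genotypes and Eif2ak2 in Maf-KO, and Rsad2 was called higher in WT gut. Oasl2, a relative of the oligoadenylate synthetases, had 7.66 and 4.39 CPM in Maf-KO gut against 17.6, 27.7 and 17.5 CPM in Maf-KO spleen, and 6.79 and 8.76 CPM in WT gut against 13.3, 18.1 and 19.6 CPM in WT spleen. The tissues did not overlap. The changes were -1.79 (SE 0.32, edgeR adjusted p = 0.0027) in Maf-KO and -1.13 (SE 0.32, edgeR adjusted p = 0.0245) in WT. The WT call of Oasl2 was lost without WT gut replicate 1 (edgeR adjusted p = 0.161) or 3 (0.0599), without WT spleen replicate 2 (0.0614) or 3 (0.062) and without both spleen libraries rich in neutrophil RNA (0.0507). Mx1, a dynamin-like GTPase against influenza virus that RefSeq lists as a transcribed pseudogene in this build of C57BL/6, had 2.7 and 3.83 CPM in Maf-KO gut against 6.73, 7.6 and 6.92 CPM in Maf-KO spleen, and 1.89 and 2.25 CPM in WT gut against 7.56, 3.39 and 7.41 CPM in WT spleen. The groups did not overlap, but the gut counts were only 15 to 48. The changes were -1.11 (SE 0.37, edgeR adjusted p = 0.0472) in Maf-KO and -1.55 (SE 0.40, edgeR adjusted p = 0.0152) in WT. In Maf-KO the Mx1 call was lost without any 1 library other than WT spleen replicate 2 (adjusted p of 0.0527 to 0.235), and in WT without WT gut replicate 1 (0.105) or 3 (0.0588). Without both spleen libraries rich in neutrophil RNA it was lost in Maf-KO (0.117) and in WT (0.058).

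Eif2ak2, the kinase PKR that stops translation on sensing double-stranded RNA, had 21.1 and 25.2 CPM in Maf-KO gut against 48.3, 33.6 and 33.7 CPM in Maf-KO spleen, and 28.3 and 22.5 CPM in WT gut against 35, 26 and 29.1 CPM in WT spleen. Maf-KO gut lay below Maf-KO spleen without overlap, and the WT groups overlapped. It was called in Maf-KO, at -0.73 (SE 0.21, edgeR adjusted p = 0.027), and not in WT, at -0.24 (SE 0.21, edgeR adjusted p = 0.432), and the difference was not called (edgeR adjusted p = 0.9999). Leaving out replicate 2 (0.164) or 3 (0.0702) of Maf-KO gut, or replicate 1 of Maf-KO spleen (0.0752), ended the Maf-KO call. Rsad2, or viperin, an enzyme that makes a chain-terminating nucleotide, had 21.3 and 20.8 CPM in Maf-KO gut against 12, 25.6 and 12.4 CPM in Maf-KO spleen, and 24 and 27.2 CPM in WT gut against 15.3, 11.4 and 13.7 CPM in WT spleen. In WT both gut libraries lay above all spleen libraries, while in Maf-KO the high spleen replicate 2 lay above gut. Rsad2 was called higher in WT, at 0.93 (SE 0.30, edgeR adjusted p = 0.0437), and not in Maf-KO, at 0.34 (SE 0.30, edgeR adjusted p = 0.439). The WT call was lost without either Maf-KO gut library (0.0595 and 0.0596), either WT gut library (0.111 and 0.162) or any 1 WT spleen library (0.0607, 0.121 and 0.0833). Without both spleen libraries rich in neutrophil RNA, Rsad2 was called higher in Maf-KO too (log2 fold change 0.80, edgeR adjusted p = 0.0274).

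**Figure D3:**
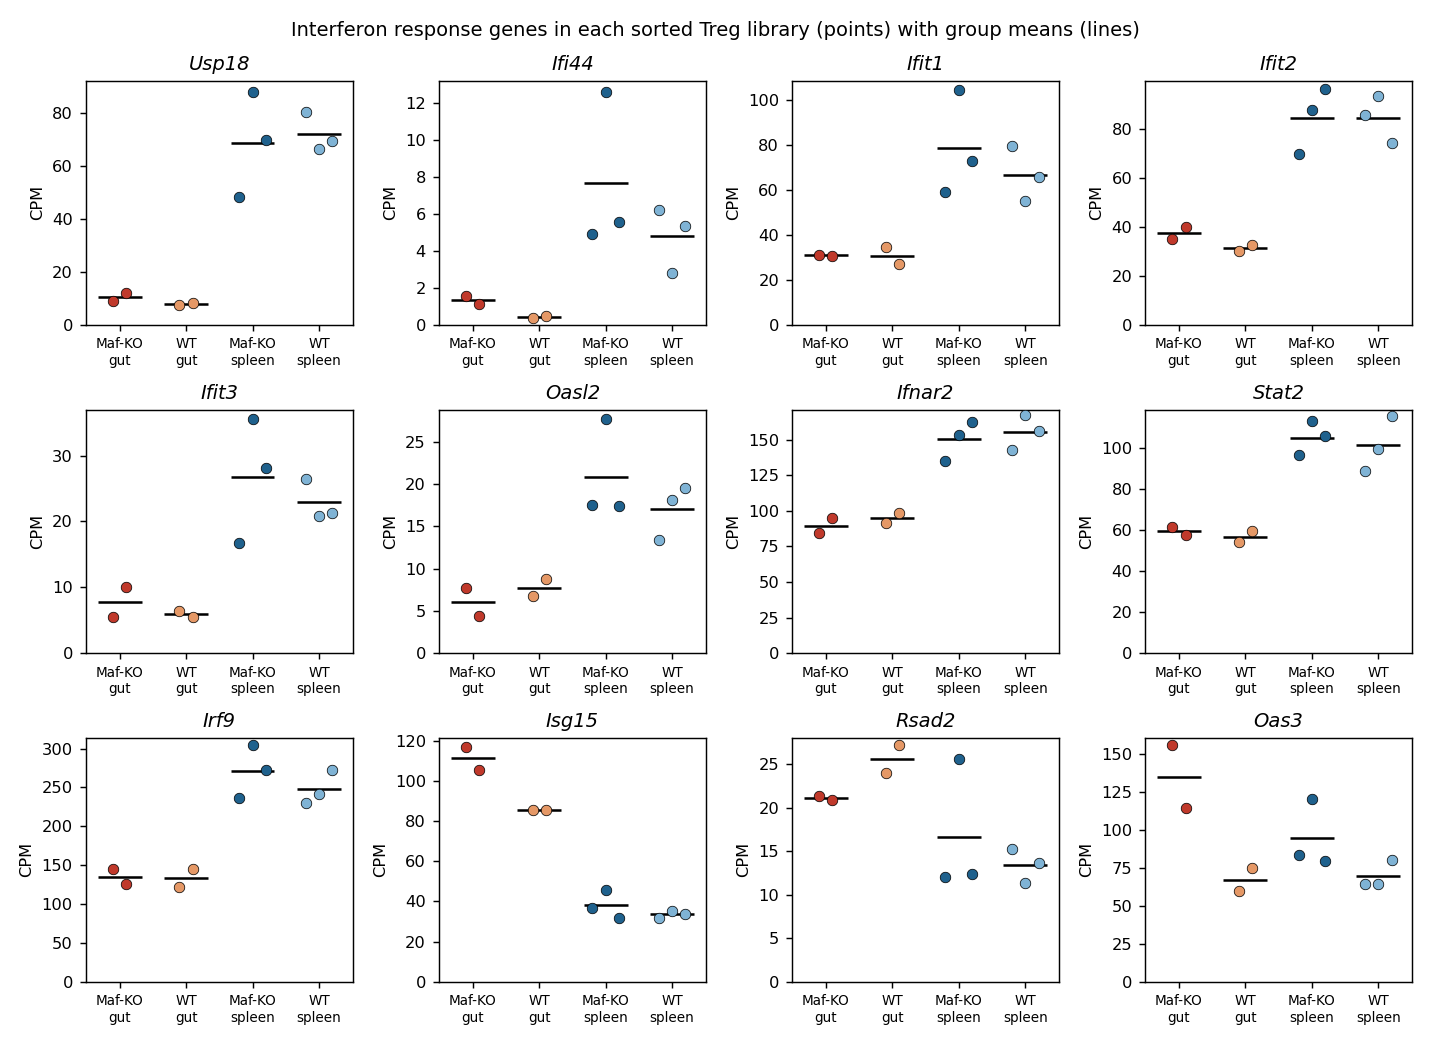
CPM of 12 interferon response genes in each library (points) with group means (lines), in the order Maf-KO gut, WT gut, Maf-KO spleen and WT spleen, each axis starting at 0. In Usp18, Ifi44, the Ifit genes, Oasl2, Ifnar2, Stat2 and Irf9 the gut points lie below the spleen points of their genotype, in Isg15 above them, and Oas3 is highest in Maf-KO gut.

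Of the 4 nucleic acid sensors, none was called in Maf-KO and 2 in WT. Zbp1, a sensor of Z-form nucleic acid that triggers cell death, had 134 and 139 CPM in Maf-KO gut against 149.9, 161 and 149 CPM in Maf-KO spleen, and 110.0 and 113 CPM in WT gut against 145, 162 and 166 CPM in WT spleen. Gut lay below spleen in both genotypes without overlap, more narrowly in Maf-KO. It was called in WT, at -0.50 (SE 0.10, edgeR adjusted p = 0.00461), under all 20 alternatives, and not in Maf-KO, at -0.17 (SE 0.10, edgeR adjusted p = 0.233). Dhx58, or LGP2, a regulator of the RNA sensors, had 46 and 44.3 CPM in Maf-KO gut against 48.3, 54.5 and 51 CPM in Maf-KO spleen, and 39.7 and 32.7 CPM in WT gut against 46.5, 47.6 and 47 CPM in WT spleen. The tissues did not overlap, but lay close. It was called in WT, at -0.38 (SE 0.12, edgeR adjusted p = 0.0408), and not in Maf-KO, at -0.18 (SE 0.12, edgeR adjusted p = 0.286). The WT call of Dhx58 was lost in 15 of 20 alternatives, among them leaving out any 1 library other than WT gut replicate 1 (edgeR adjusted p of 0.0518 to 0.234), or both spleen libraries rich in neutrophil RNA (0.11). Ddx58, which encodes RIG-I, had log2 fold changes of -0.15 (SE 0.13) in Maf-KO and -0.17 (SE 0.13) in WT, and Ifih1, its sister sensor, of -0.12 (SE 0.13) in Maf-KO and -0.04 (SE 0.13) in WT, with overlapping groups and no call.

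Parp9 and its partner Dtx3l, a ubiquitin ligase, work together in ADP-ribosylation, and Parp14 is another enzyme of that kind. Parp9 had 138 and 135 CPM in Maf-KO gut against 164, 186 and 172 CPM in Maf-KO spleen, and 117 and 137 CPM in WT gut against 156, 173 and 177 CPM in WT spleen. Gut lay below spleen without overlap in both genotypes. The changes were -0.35 (SE 0.11, edgeR adjusted p = 0.0404) in Maf-KO and -0.41 (SE 0.11, edgeR adjusted p = 0.0202) in WT. Calls of Parp9 were lost in Maf-KO when replicate 2 (0.135) or 3 (0.192) of Maf-KO gut, 2 (0.115) or 3 (0.076) of Maf-KO spleen, or 2 of WT spleen (0.0517) was left out, and without WT gut replicate 1 (0.158) or WT spleen replicate 2 (0.0516) or 3 (0.0561) in WT. Without both spleen libraries rich in neutrophil RNA they were lost in Maf-KO (0.146) and in WT (0.0736). Parp14 had 124 and 125 CPM in Maf-KO gut against 191, 237 and 199.96 CPM in Maf-KO spleen, and 71 and 128 CPM in WT gut against 130.1, 202 and 220.4 CPM in WT spleen. The groups did not overlap, although WT gut replicate 3 and WT spleen replicate 1 were almost level. It was called in WT, at -0.89 (SE 0.27, edgeR adjusted p = 0.0315), and lay just short in Maf-KO, at -0.75 (SE 0.26, edgeR adjusted p = 0.058). The WT call of Parp14 was lost without WT gut replicate 1 (0.219), WT spleen replicate 2 (0.0822) or 3 (0.0822), and without both spleen libraries rich in neutrophil RNA (0.0995). Dtx3l was not called, at -0.37 (SE 0.20, edgeR adjusted p = 0.192) in Maf-KO and -0.37 (SE 0.20, edgeR adjusted p = 0.192) in WT. The gene models of Parp9 and Dtx3l overlap, which leaves their counts uncertain.

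Ifi44, an interferon-induced gene of low abundance, had 1.57 and 1.12 CPM in Maf-KO gut against 4.88, 12.6 and 5.56 CPM in Maf-KO spleen, and 0.377 and 0.473 CPM in WT gut against 6.23, 2.77 and 5.32 CPM in WT spleen. Its WT gut values rest on 3 and 4 counts, and its Maf-KO gut values on 18 and 14. All gut libraries lay below all spleen libraries. The changes were -2.50 (SE 0.53, edgeR adjusted p = 0.00636) in Maf-KO and -3.44 (SE 0.65, edgeR adjusted p = 0.00336) in WT, and the Maf-KO call was lost without Maf-KO gut replicate 3 (0.0637). Of 30 calls in both tissue comparisons, 18 held in every alternative run.

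The other 22 genes were called in no comparison. Ifitm1, whose family of membrane proteins blocks virus entry, had 0.348 and 0.319 CPM in Maf-KO gut against 0.651, 5.84 and 0.487 CPM in Maf-KO spleen, and 0.629 and 0.237 CPM in WT gut against 0.979, 0.539 and 17.2 CPM in WT spleen. Its 2 high values were those of Maf-KO spleen replicate 2 and WT spleen replicate 3, the libraries with the most neutrophil RNA, and the gut values rest on 2 to 5 counts. Ifitm3, of the same family, was also highest in these 2 libraries, with 10.01 and 8.15 CPM in Maf-KO gut against 7.7, 19.8 and 8.29 CPM in Maf-KO spleen, and 8.17 and 9 CPM in WT gut against 10.1, 9.4 and 20.2 CPM in WT spleen. Over the 40 genes, Maf-KO spleen replicate 2 was the highest of its group in 30, and WT spleen replicate 3 in 24. The share of all genes highest in these libraries was not counted, so the counts are not shown to be particular to the 40. Rtp4, a chaperone of cell surface receptors that interferon induces, lay just short of a call in both, at -0.58 (SE 0.22, edgeR adjusted p = 0.0703) in Maf-KO and -0.65 (SE 0.22, edgeR adjusted p = 0.0509) in WT. Bst2 had log2 fold changes of 0.43 (SE 0.22, edgeR adjusted p = 0.174) in Maf-KO and 0.34 (SE 0.22, edgeR adjusted p = 0.286) in WT.

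With the title number as a fixed block, calls were added in both genotypes for Oas2, Oasl1, Rtp4, Trim30a and Dtx3l, all lower in gut. In Maf-KO the block gave Trim25 -0.58 (SE 0.12, edgeR adjusted p = 0.00469) and Parp14 -0.81 (SE 0.10, edgeR adjusted p = 3.70e-04), so that both were then called lower in each genotype. Dtx3l stood at -0.44 (SE 0.09, edgeR adjusted p = 0.00555) in Maf-KO and -0.34 (SE 0.09, edgeR adjusted p = 0.0197) in WT, and Rtp4 at -0.76 (SE 0.12, edgeR adjusted p = 0.00126) in Maf-KO and -0.73 (SE 0.12, edgeR adjusted p = 0.0019) in WT. Irf1, Bst2 and Oas3 were among the genes then called higher in Maf-KO gut. Irf1 had 0.30 (SE 0.10, edgeR adjusted p = 0.0482), Bst2 0.32 (SE 0.10, edgeR adjusted p = 0.0385) and Oas3 0.45 (SE 0.09, edgeR adjusted p = 0.00584) in that fit. Ifitm1 was called lower in WT, at -3.95 (SE 1.08, edgeR adjusted p = 0.0208), and Ifi35 too, at -0.42 (SE 0.12, edgeR adjusted p = 0.0254). Ifnar1 was called higher in Maf-KO with the number as a random effect, at 0.43 (SE 0.14, limma-voom adjusted p = 0.0285), and not as a fixed block, at 0.40 (SE 0.14, edgeR adjusted p = 0.0557).

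**Figure D4:**
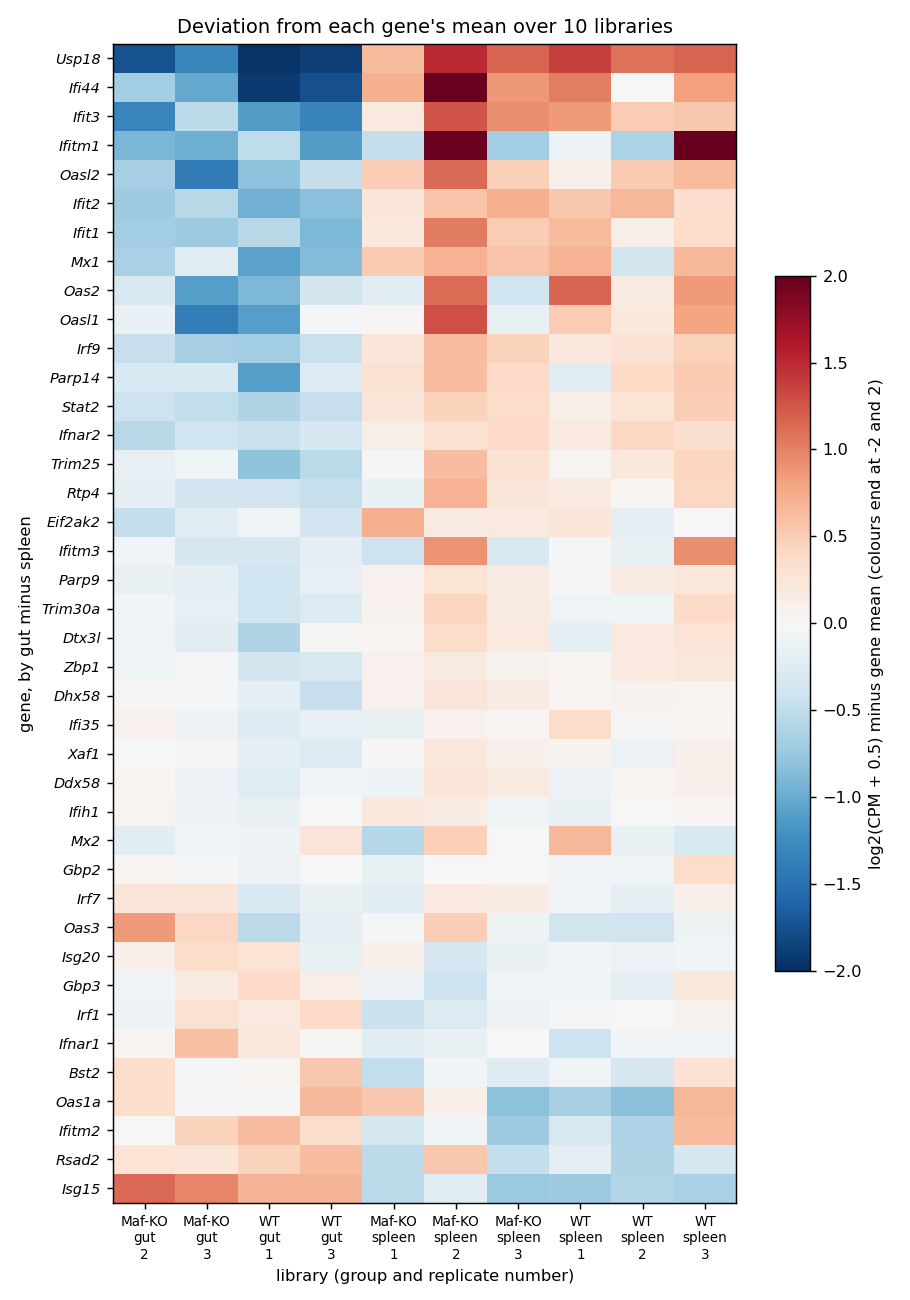
Deviation of each gene (rows, ordered by gut minus spleen) in each of the 10 libraries (columns) from its mean over all libraries, as log2(CPM + 0.5), red above and blue below the mean, with colours ending at -2 and 2. The top rows, from Usp18 to Parp14, are blue in the 4 gut columns, Isg15 in the bottom row is red there, and Maf-KO spleen replicate 2 and WT spleen replicate 3 are the darkest spleen columns for Ifitm1 and Ifitm3.

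The comparison of genotypes asks whether loss of c-Maf, a transcription factor that Tregs of the gut express, goes with a change in these genes. In gut, none of the 40 was called between Maf-KO and WT by edgeR, where 0.151% of all genes tested were. At an unadjusted p under 0.05, 7 of the 40 were higher in Maf-KO gut and 0 lower, against 3.56% of all genes higher and 4.58% lower. Leaving out 1 gut library leaves 1 library in its group, so only medians are given for those fits. With the replicate number as a block, 2 of the 40 were higher and 1 lower at an unadjusted p under 0.05. In that fit 788 of all 13214 genes were at that p in either direction, against 1076 without the block. The log2 fold change was above 0 for 27 of the 40 (67.5%, against 49.3% of all genes), and their median was 0.10. With the 2 Maf-KO and 2 WT gut libraries, 14 genes did not overlap and were higher in Maf-KO and 1, Rsad2, was lower, where all genes gave 17.4% higher and 18.8% lower. The median ran between 0.04 (Maf-KO gut replicate 2 left out) and 0.17 (WT gut replicate 3 left out), and was 0.01 with the replicate number as a block. DESeq2 called 1 of the 40, Oas3, and limma-voom 0, where 0.848% and 0.25% of all genes were called.

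Oas3, an oligoadenylate synthetase whose product activates the nuclease RNase L, had the lowest p of the 40 in gut. It stood at 156 and 114 CPM in Maf-KO gut against 59.7 and 74.8 CPM in WT gut, and 83.3, 121 and 79.4 CPM in Maf-KO spleen against 64.6, 64.5 and 80.1 CPM in WT spleen. Both Maf-KO gut libraries lay above both WT gut libraries, and the spleen groups overlapped. The log2 fold change was 1.003 (SE 0.23, edgeR adjusted p = 0.214) in gut, and 0.44 (SE 0.19, edgeR adjusted p = 0.9994) in spleen. In gut Oas3 was called with DESeq2 (adjusted p = 0.0145) and without the filter on low counts (0.0349), within 0.0145 to 0.754 over 19 alternatives. Irf7 stood at 106 and 106 CPM in Maf-KO gut against 72.8 and 82 CPM in WT gut, and 77.5, 103 and 99.4 CPM in Maf-KO spleen against 85.8, 79.3 and 96.4 CPM in WT spleen. It was higher in both Maf-KO gut libraries, and overlapped in spleen. Its log2 fold change in gut was 0.46 (SE 0.15, edgeR adjusted p = 0.471). Zbp1 had a log2 fold change of 0.29 (SE 0.11, edgeR adjusted p = 0.526) and Trim25 of 0.54 (SE 0.20, edgeR adjusted p = 0.531) in gut, both with no overlap between genotypes at the values given above. The other 3 genes at an unadjusted p under 0.05 in gut were Isg15 (0.38 (SE 0.16)), Dhx58 (0.32 (SE 0.13)) and Ifi44 (1.62 (SE 0.72)), at edgeR adjusted p of 0.579, 0.579 and 0.606.

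In spleen, none of the 40 was called between genotypes by edgeR, where 0.0151% of all genes were. DESeq2 and limma-voom called 0 as well, where 0.136% and 0% of all genes were called. Oas3 alone was at an unadjusted p under 0.05, higher in Maf-KO, against 1.37% of all genes higher. With 1 spleen library left out, 0 to 2 genes were higher and 0 to 2 lower at that p. Of all genes, 212 to 625 were at that p in these fits, in either direction, against 376 with all libraries. None was higher without Maf-KO spleen replicate 2 or WT spleen replicate 2, and 2 were without Maf-KO spleen replicate 3 or WT spleen replicate 3. The log2 fold change was above 0 for 25 of the 40 (62.5%, against 48.5% of all genes), with a median of 0.08, which ran between -0.01 (Maf-KO spleen replicate 2 left out) and 0.17 (WT spleen replicate 3 left out). The groups did not overlap for 1 higher gene, Dhx58, and 1 lower gene, Irf1, where all genes gave 3.59% and 3.91%. Irf1 had 392.4, 435 and 491 CPM in Maf-KO spleen against 514, 524 and 557 CPM in WT spleen. Each Maf-KO value lay below each WT value, and the log2 fold change was -0.28 (SE 0.13, edgeR adjusted p = 0.9994). Eif2ak2 had a log2 fold change of 0.36 (SE 0.18, edgeR adjusted p = 0.9994) and Ifi44 of 0.68 (SE 0.42, edgeR adjusted p = 0.9994) in spleen, with overlapping groups.

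The difference of the genotype effect between gut and spleen was called for none of the 40 and for 0% of all genes tested with edgeR. It was called for none of the 40 with DESeq2 or limma-voom, where 0.0605% and 0% of all genes were called. Zbp1 was the 1 gene at an unadjusted p under 0.05, against 1.08% of all genes with a positive difference, at 0.33 (SE 0.14, edgeR adjusted p = 0.9999). At that p, 4 genes had a positive difference without Maf-KO spleen replicate 2, and 4 a positive and 1 a negative one with the title number as a random effect. Of all genes, 427 and 981 were at that p in these fits, in either direction, against 422 in the main fit. None had a positive difference when replicate 1 or 3 of Maf-KO spleen, or replicate 2 or 3 of WT spleen, was left out. In those fits 373 to 520 of all genes were at that p in either direction. Next came Ifi35, an interferon-induced leucine zipper protein, with 88.6 and 77.6 CPM in Maf-KO gut against 69.1 and 74.4 CPM in WT gut, and 74.8, 88.7 and 86.3 CPM in Maf-KO spleen against 107, 84.9 and 85.9 CPM in WT spleen. Its Maf-KO libraries were above WT in gut and overlapped WT in spleen, and the difference was 0.37 (SE 0.19, edgeR adjusted p = 0.9999). Oas3 followed at 0.57 (SE 0.30, edgeR adjusted p = 0.9999) and Irf7 at 0.36 (SE 0.20, edgeR adjusted p = 0.9999). A p that misses the threshold does not show that genotypes were alike, and the SE of the genotype effect was, for example, 0.14 for Stat2 in gut and 0.11 in spleen.

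**Figure D5:**
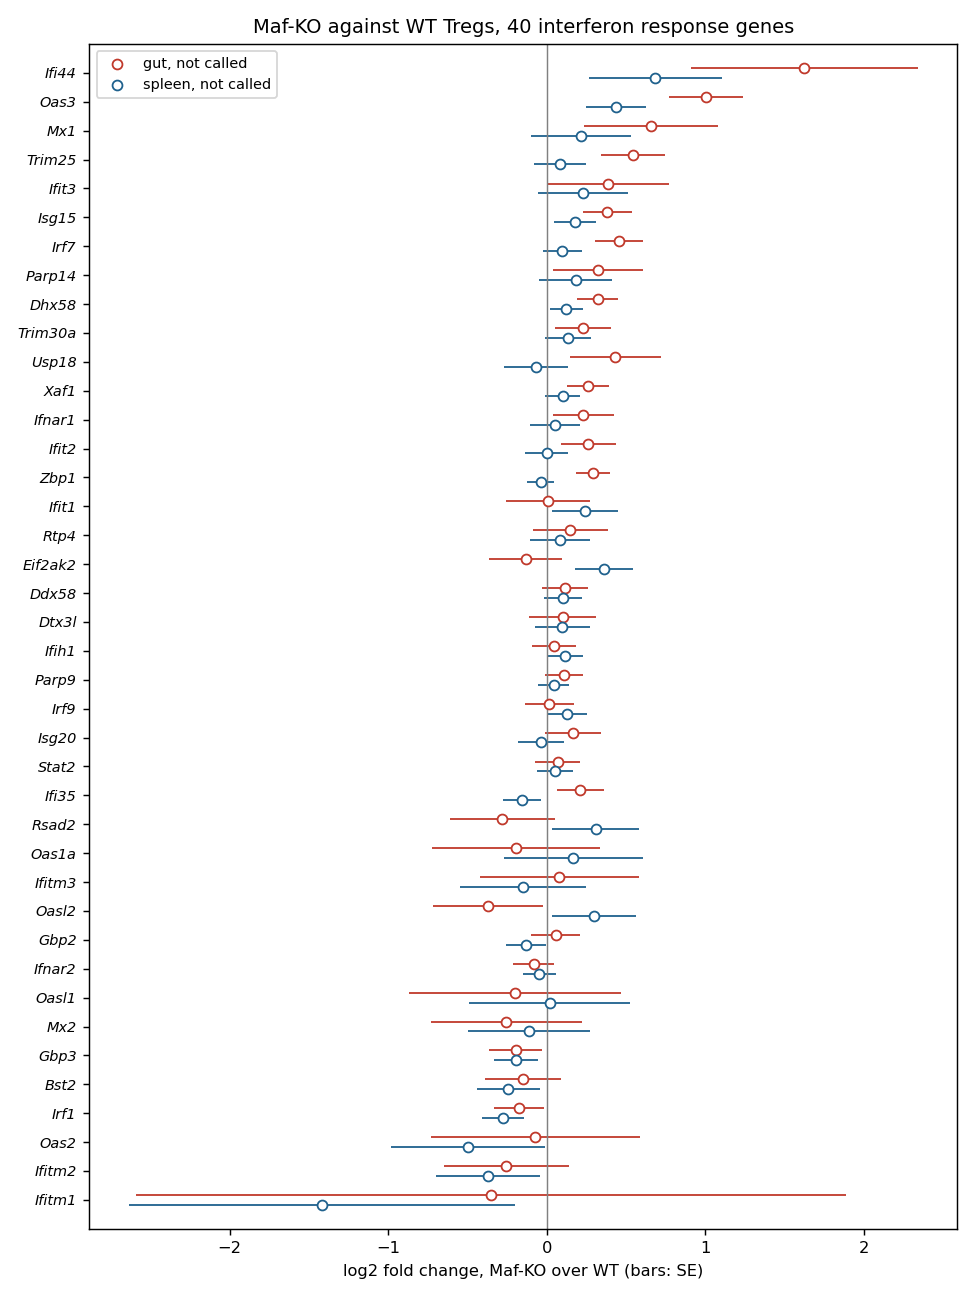
Log2 fold change of Maf-KO over WT for each of the 40 genes (x axis, log2; bars are SE), in gut (red, upper point) and spleen (blue, lower point). All points are open because no gene was called, and Ifi44 and Oas3 lie farthest right in both tissues.

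Other genes of the pathway were counted by list, to be read beside all genes tested, of which 14.4% were called higher and 14.1% lower in Maf-KO gut, and 14.7% higher and 13.3% lower in WT gut. Of 67 further interferon-induced genes tested, 5 were called higher and 22 lower in gut in Maf-KO, and 6 higher and 28 lower in WT. Of 14 sensors and inducers of interferon, 0 were higher and 6 lower in Maf-KO gut, and 3 higher and 6 lower in WT gut. Of 31 genes that lean to type II interferon or serve antigen presentation, 3 were higher and 10 lower in Maf-KO gut, and 3 higher and 12 lower in WT gut. Of 15 receptors, kinases and inhibitors, 5 were higher and 0 lower in Maf-KO gut, and 4 higher and 1 lower in WT gut. Ifng was the 1 ligand tested and was higher in gut in both genotypes. None of these genes was called between genotypes in either tissue or in the interaction.

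Trim21, a ubiquitin ligase and antibody receptor of the cytosol, had 53.2 and 47.4 CPM in Maf-KO gut against 132, 139.7 and 137 CPM in Maf-KO spleen, and 46.8 and 51.8 CPM in WT gut against 116, 118 and 131 CPM in WT spleen. The tissues did not overlap, and the changes were -1.44 (SE 0.11, edgeR adjusted p = 1.43e-05) in Maf-KO and -1.30 (SE 0.11, edgeR adjusted p = 2.56e-05) in WT. Ifi47, a GTPase that interferon gamma induces, had 162 and 156 CPM in Maf-KO gut against 422, 499 and 471 CPM in Maf-KO spleen, and 156 and 160.0 CPM in WT gut against 417, 495.1 and 494 CPM in WT spleen. Gut was again lower without overlap, with -1.54 (SE 0.12, edgeR adjusted p = 2.25e-05) in Maf-KO and -1.57 (SE 0.12, edgeR adjusted p = 1.83e-05) in WT. Iigp1, another GTPase of that family, had 40.6 and 41.5 CPM in Maf-KO gut against 133, 131 and 161 CPM in Maf-KO spleen, and 65.5 and 54.8 CPM in WT gut against 133, 138 and 161 CPM in WT spleen. It too was lower in each gut library, with -1.78 (SE 0.14, edgeR adjusted p = 2.31e-05) in Maf-KO and -1.26 (SE 0.14, edgeR adjusted p = 1.66e-04) in WT. Cd274, which encodes the checkpoint ligand PD-L1, ran the other way, with 246 and 267 CPM in Maf-KO gut against 103, 96.6 and 109 CPM in Maf-KO spleen, and 253 and 236 CPM in WT gut against 106, 93.1 and 93.2 CPM in WT spleen. Every gut library was above every spleen library, with changes of 1.31 (SE 0.11, edgeR adjusted p = 2.25e-05) in Maf-KO and 1.33 (SE 0.11, edgeR adjusted p = 1.84e-05) in WT. Jak2, a kinase of the interferon gamma receptor, had 767 and 873 CPM in Maf-KO gut against 355, 307 and 343 CPM in Maf-KO spleen, and 1003 and 917 CPM in WT gut against 321, 364 and 359.9 CPM in WT spleen. It was higher in gut without overlap, at 1.29 (SE 0.12, edgeR adjusted p = 5.06e-05) in Maf-KO and 1.46 (SE 0.12, edgeR adjusted p = 2.01e-05) in WT.

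Between genotypes these genes were not called, and those with the lowest p are given as values. Lgals3bp, a secreted glycoprotein that interferons induce, had 81 and 82.8 CPM in Maf-KO gut against 63.2 and 55.6 CPM in WT gut, and 74.3, 69.8 and 74.5 CPM in Maf-KO spleen against 61.1, 62.6 and 62 CPM in WT spleen. Its Maf-KO libraries lay above WT in both tissues, with 0.46 (SE 0.11, edgeR adjusted p = 0.209) in gut. Trim30d, a relative of Trim30a, had 22.7 and 20.9 CPM in Maf-KO gut against 0.503 and 0.118 CPM in WT gut, and 26, 25.7 and 18.8 CPM in Maf-KO spleen against 0.445, 18.3 and 1.9 CPM in WT spleen. The low values were those of WT replicates 1 and 3 in both tissues, while WT spleen replicate 2 was close to the Maf-KO libraries. Trim30d has near copies, so its reads may be split between them. Its log2 fold change in gut was 6.10 (SE 1.56, edgeR adjusted p = 0.294). In spleen, Socs3, an inhibitor of cytokine signalling, had 68.5, 62.1 and 80.2 CPM in Maf-KO against 95.9, 109 and 182 CPM in WT. The groups did not overlap, at -0.87 (SE 0.23, edgeR adjusted p = 0.9994). Irf8, a factor of myeloid and B cells, had 36.4 and 37.9 CPM in Maf-KO gut against 28.8 and 35.3 CPM in WT gut, and 52.7, 58 and 56.3 CPM in Maf-KO spleen against 86, 70.6 and 70.1 CPM in WT spleen. Maf-KO spleen was below WT spleen without overlap, at -0.44 (SE 0.12, edgeR adjusted p = 0.9994), and in gut Maf-KO lay above WT, with a difference between tissues of 0.65 (SE 0.19, edgeR adjusted p = 0.9999). Irgm2, another interferon-induced GTPase, had 47.8 and 49 CPM in Maf-KO gut against 79.6 and 71.3 CPM in WT gut, and 98.5, 132 and 128 CPM in Maf-KO spleen against 97.2, 115 and 125 CPM in WT spleen, with Maf-KO below WT in gut, overlap in spleen and a difference of -0.73 (SE 0.21, edgeR adjusted p = 0.9999).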

How the data were processed

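RNA was sequenced from Tregs sorted by CD4, TCR beta and YFP, with RNeasy Plus Mini extraction and TruSeq libraries, per the labels' protocols. The deposited table holds raw gene counts that the authors made, with Subread, featureCounts and limma and the build GRCm38 (mm10) listed per the submitters' processing notes, which give them no order. The authors also deposited log2 FPKM values per library for 12252 genes. Neither the tools' versions nor the annotation or the strandedness of counting is given in the sources used here, so overlapping genes may share reads. Entries without a symbol (852, with 0.173 to 0.203% of counts) are in no gene list. They stayed in the table, and those that passed the filter were scaled and tested with the other genes.

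Counts were filtered with filterByExpr (minimum count 10, minimum total 15) and scaled by TMM. edgeR 4.0.16 in R 4.3.3 fitted 1 quasi-likelihood model over the 4 groups. Benjamini-Hochberg adjustment ran over 13214 genes, with calls at an adjusted p under 0.05. The SE is the log2 fold change divided by the root of F. Marker sums are sums of CPM. The interaction is the Maf-KO effect in gut minus that in spleen. The code was tested on simulated counts.

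The 40 genes and all other lists were chosen with earlier results of these data known. Genes named with values are members called in any comparison, the 4 with the lowest p in each, the 3 most abundant, receptors and Stat2, Irf7 and Irf9, the check genes Maf and Foxp3, and from the other lists up to 4 called genes or the 2 with the lowest p. Others named were chosen after their values were seen, and 1 gene that this rule names is not reported here.

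Gut and spleen libraries with the same title number deviated together (r of 0.399, 0.386, 0.339 and 0.277 for the 4 pairs). The number links them in the labels' titles, which do not say what it stands for. A gut group holds 2 libraries, whose deviations mirror each other, so the r values of the pairs are not independent. Libraries that share only a replicate number across genotypes gave r of -0.362 to 0.0301. Libraries that share neither number reached up to 0.269 (Maf-KO spleen replicate 2 with WT spleen replicate 3). Alternatives were DESeq2 1.42.0, limma 3.58.1 (voom, and trend on the log2 FPKM values), DESeq2 size factors, no filter, groups compared alone, replicate blocks, each library left out, and, added after seeing the data, both spleen libraries with most neutrophil RNA left out.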

Additional observations from a re-analysis of the deposited data

How the results depend on the processing

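No called result of the 40 genes changed sign under the alternatives run. With limma on the log2 FPKM values, the tissue medians were -0.542 in Maf-KO and -0.646 in WT, but the median of all genes shifted too, to -0.269 and -0.286. That fit called 21 genes in Maf-KO (1 higher, 20 lower) with 36.9% of all genes called. On that scale 1 gene did not overlap between genotypes in spleen, and the share of all genes was not counted. With the title number as a block, tissue calls in Maf-KO were 25 as a fixed effect and 23 as a random effect. In these fits 39.7% and 43.7% of all genes were called. With the replicate number as a block, tissue calls were 16 in Maf-KO and 15 in WT, and calls between genotypes were 0. Of all genes, 26.3% were called between tissues in Maf-KO and 24% in WT in that fit. Without both spleen libraries rich in neutrophil RNA the Maf-KO tissue median was -0.127. Leaving out 1 spleen library at a time gave 11 to 13 calls in Maf-KO, with 21.9% to 27.8% of all genes called. In WT it gave 12 to 18, with 22.4% to 27.3% of all genes called. A gut group with 1 library left out holds only 1 library, so for these fits medians alone are given here. Calls named above as lost without a gut library of the compared groups come from such fits. The medians ran from -0.383 to -0.276 in Maf-KO and from -0.511 to -0.398 in WT. Between genotypes in gut, dropping the filter gave 1 call and DESeq2 gave 1, both Oas3. Of all genes, 0.368% and 0.848% were called in these fits. The causes were not tested.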
